A study of Mus musculus with 8 samples.

Results

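The genes described here are interferon gamma (Ifng), the ligand-binding chain of its receptor (Ifngr1), and regulators tied to the T helper 1 (Th1) cell programme: the transcription factors Tbx21, Irf1 and Hlx, and the cytokine subunit gene Il12b. They were taken by symbol from the platform annotation, and all 6 were measured, each by 1 probe set, among 6986 genes in all. Expression came from Affymetrix arrays hybridised with RNA of CD4+CD25+ lymphocytes, a gate rich in regulatory T cells (Treg). These lymphocytes were purified by cytometric sorting from uterus-draining lymph nodes of mice at day 9.5 of pregnancy. There were 4 arrays from Il10-/- mice, mutant for the inhibitory cytokine interleukin 10, and 4 from Il10+/+ mice. Each array held a separate pool of RNA from 2 to 4 mice. The Il10-/- line had been backcrossed through the C57BL/6 colony that supplied the Il10+/+ mice. The drinking water of the Il10-/- mice held oxytetracycline at 2 mg/ml to prevent colitis. The labels name no antibiotic for Il10+/+ mice, so genotype and antibiotic cannot be told apart. The age of the mothers is not given in the sources used here.

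Interferon gamma is the signature cytokine of Th1 cells and is also made by CD8 T cells and natural killer (NK) cells. It binds a receptor of the Ifngr1 and Ifngr2 chains, and its signal reaches gamma-activated sequence (GAS) elements in promoters such as that of Irf1. T-bet, the product of Tbx21, drives Ifng transcription in Th1 cells together with Hlx, after interleukin 12 from dendritic cells and macrophages has activated STAT4. A T-bet-expressing subset of Treg restrains Th1 inflammation, and interferon gamma made by former Treg is a commonly used sign of Treg instability.

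The promoter windows of Ifng and Irf1 are shown because Ifng is the one gene of the 6 whose groups did not overlap and Irf1 is a textbook target gene of the same pathway. Both are RefSeq sequences of 300 bases on build GRCm38.p6, from 250 bases before to 50 bases after the gene start, and all 6 genes matched the promoter table. The Ifng window is chr10:118440796-118441095 on the + strand and the Irf1 window is the first of its 2 starts, chr11:53769764-53770063 on the + strand. Capitals mark matches, on either strand, to the GAS letters TTCNNNGAA and to the core GGAAA bound by the calcium-regulated factor NFAT.
Ifng: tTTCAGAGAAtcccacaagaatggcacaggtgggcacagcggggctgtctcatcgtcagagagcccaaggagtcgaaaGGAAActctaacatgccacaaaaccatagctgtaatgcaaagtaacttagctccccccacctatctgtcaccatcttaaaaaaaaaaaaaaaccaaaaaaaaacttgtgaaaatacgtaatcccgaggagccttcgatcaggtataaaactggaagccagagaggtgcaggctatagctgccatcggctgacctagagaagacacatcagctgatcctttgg
Irf1: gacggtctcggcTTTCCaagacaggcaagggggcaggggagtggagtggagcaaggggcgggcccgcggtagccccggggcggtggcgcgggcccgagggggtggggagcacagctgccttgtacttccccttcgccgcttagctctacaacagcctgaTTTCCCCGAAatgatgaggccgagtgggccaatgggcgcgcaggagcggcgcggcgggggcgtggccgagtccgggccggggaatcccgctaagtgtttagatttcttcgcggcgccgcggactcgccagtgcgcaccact
The GAS letters lay at positions -249 to -241 in the Ifng window and -90 to -82 in the Irf1 window, counted back from the gene start, where an NFAT core overlapped the Irf1 match. They occurred in 2 of the 7 windows of the 6 genes and in 8.3% of the 32851 windows in the table. The NFAT core occurred in 5 of the 7 windows and in 61.3% of all windows. The T-box half-site GGTGTGA (3.98% of all windows) and the interferon-stimulated response element (3.44%) had no match in the 7 windows, which says only that these letters are not there.

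The arrays' medians over all genes lay between 6.97 and 7.12 on the log2 scale. Il10-/- replicate 2 and Il10+/+ replicate 4 were set apart by narrower signal distributions, with interquartile ranges of 2.15 and 2.17 against 2.32 to 2.58 in the other arrays. Over all genes, limma called 2 of 6986 (0.0286%) at an adjusted p under 0.05, Ctse and Efcab2, both higher in Il10-/-. Il10 itself read higher in the arrays labelled Il10-/- (mean 9.17 against 8.10 in Il10+/+). Which part of the gene is mutated is not stated in the labels, so this checks no label. Of 16 Treg markers 7 were measured, and Foxp3, Il2ra and Cd4 were not analysed here. Ikzf2 (Helios) averaged 11.34 ± 0.15 in Il10-/- and 11.54 ± 0.15 in Il10+/+ arrays (SD, n = 4 each), and the costimulator Icos 11.74 ± 0.09 and 11.61 ± 0.08.

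Ifng was the one gene of the 6 that separated the genotypes. Its probe set (17237589, chromosome 10) read 8.08, 7.84, 7.64 and 7.78 in Il10-/- replicates 1 to 4, against 7.37, 7.35, 7.30 and 7.33 in Il10+/+ replicates 1 to 4, as log2 signal. Every Il10-/- array lay above every Il10+/+ array, with a gap of 0.27 between the groups. The Il10-/- mean was 7.84 ± 0.18 and the Il10+/+ mean 7.34 ± 0.03 (SD, n = 4 each). They differed by 0.50 (SE 0.11, 95% interval 0.26 to 0.74), or 1.41-fold. Ifng did not pass the test over all genes (limma, adjusted p = 0.406, unadjusted p = 0.000872), where it ranked number 15 of 6986 by p, and 95 genes, Ifng included, had a difference of that height. The exact two-sided permutation test gave p = 0.0286, the smallest that the 70 assignments of 4 and 4 arrays allow. Non-overlap in this direction was found for 1.83% of all genes tested. The mean level of Ifng was at the 60.9th percentile of brightness over all genes. No detection call was used, so how far its Il10+/+ signal lay above background is not known. In bulk samples, more cells that transcribe a gene and more RNA per cell cannot be told apart.

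The SD of Ifng among Il10-/- arrays, 0.18, was at the 61.4th percentile of such SDs over all genes, while the SD of 0.03 among Il10+/+ arrays was at the 0.6th. Replicate 1 was the highest of the Il10-/- arrays and replicate 3 the lowest. Without Il10-/- replicate 1 the difference was 0.42, and without Il10-/- replicate 3 it was 0.56. Neither array that stood apart was the highest or lowest of its group for Ifng, and without both the difference was 0.49.

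**Figure D1:**
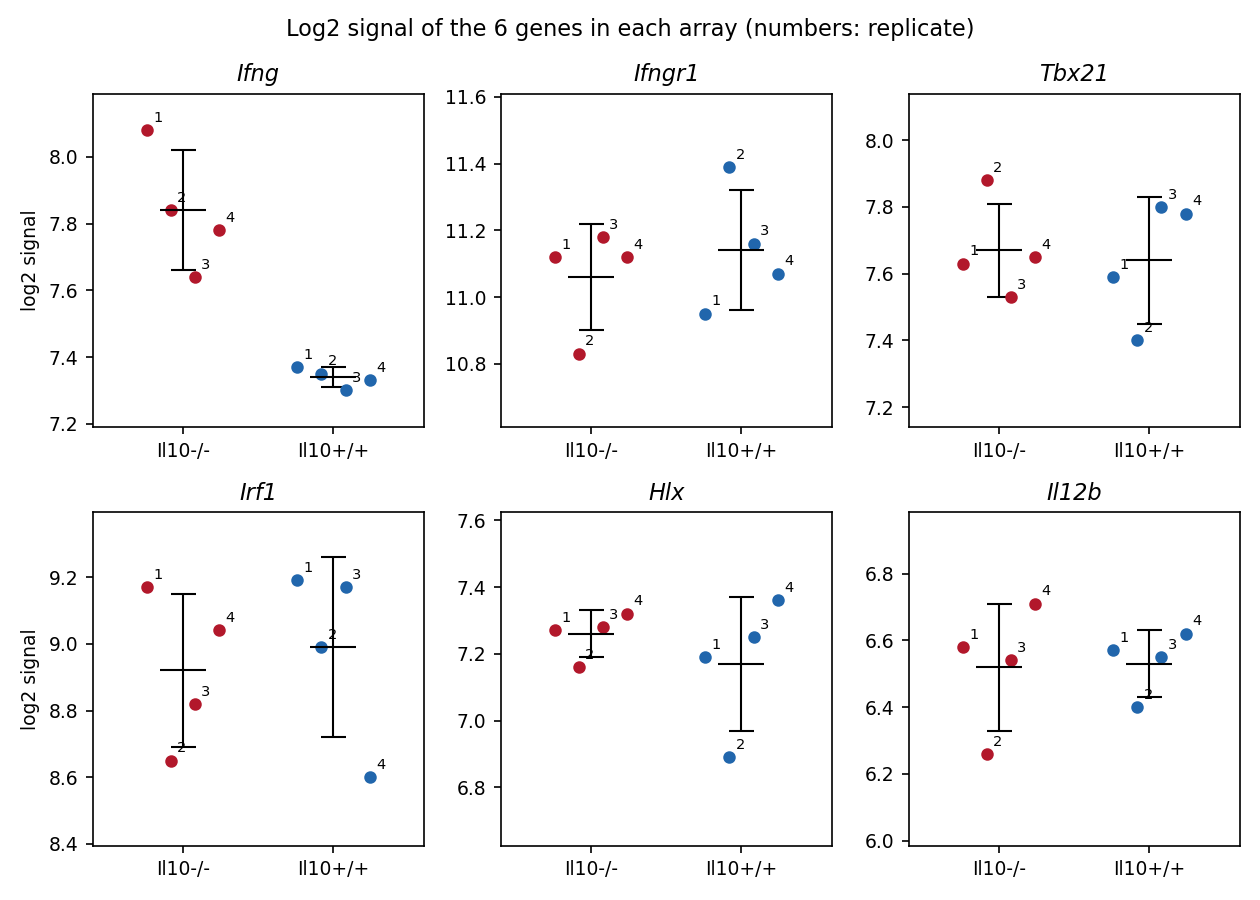
Log2 signal (vertical axis, each panel spanning 1 log2 unit) of the 6 genes in the Il10-/- arrays (left, red) and Il10+/+ arrays (right, blue). Points are arrays numbered by replicate, and bars give the mean ± SD (n = 4 each). Ifng has 4 Il10-/- points between 7.64 and 8.08, above all Il10+/+ points at 7.30 to 7.37, and in the other panels the groups overlap.

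Ifngr1, the receptor chain that binds the cytokine, had overlapping groups. It read 11.12, 10.83, 11.18 and 11.12 in Il10-/- and 10.95, 11.39, 11.16 and 11.07 in Il10+/+ arrays. Il10-/- replicate 2 was the lowest of all arrays, and Il10+/+ replicate 2 the highest. The log2 difference was -0.08 (SE 0.12, 95% interval -0.35 to 0.19; limma, adjusted p = 0.999; exact permutation p = 0.543). Without Il10+/+ replicate 2 it was 0.003, and without both arrays that stood apart -0.027. Its mean signal was at the 97.5th percentile over all genes, a rank of brightness that reflects the probes as well as the transcript.

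Tbx21, which encodes T-bet, likewise had overlapping groups. It read 7.63, 7.88, 7.53 and 7.65 in Il10-/- and 7.59, 7.40, 7.80 and 7.78 in Il10+/+ arrays. The lowest array of all was Il10+/+ replicate 2 and the highest Il10-/- replicate 2. The log2 difference was 0.03 (SE 0.12; limma, adjusted p = 0.999; exact permutation p = 0.8286). Its 95% interval, -0.24 to 0.30, includes neither the 0.50 measured for Ifng nor a fall of that size. The interval of Ifng, 0.26 to 0.74, overlaps it, and the genes were not tested against each other. The Tbx21 difference was -0.039 without Il10-/- replicate 2 and -0.052 without Il10+/+ replicate 2.

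Hlx, the homeobox partner of T-bet, read 7.27, 7.16, 7.28 and 7.32 in Il10-/- and 7.19, 6.89, 7.25 and 7.36 in Il10+/+ arrays. The Il10-/- arrays lay within the range of the Il10+/+ arrays, whose replicate 2 was the lowest. The log2 difference was 0.09 (SE 0.12, 95% interval -0.17 to 0.34; limma, adjusted p = 0.999; exact permutation p = 0.6). It was -0.008 without Il10+/+ replicate 2 and 0.18 without both arrays that stood apart. Hlx lies on chromosome 1, as do Il10 and the called gene Ctse, and distances to Il10 were not examined.

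Irf1, the transcription factor induced by interferon gamma, was lowest, within each genotype, in the array that stood apart. It read 9.17, 8.65, 8.82 and 9.04 in Il10-/- and 9.19, 8.99, 9.17 and 8.60 in Il10+/+ arrays. Il10-/- replicate 2 and Il10+/+ replicate 4 were the lowest of all, and the other 6 arrays lay between 8.82 and 9.19. The log2 difference was -0.07 (SE 0.16, 95% interval -0.42 to 0.28; limma, adjusted p = 0.999; exact permutation p = 0.771). Without both of those arrays it was -0.11. Of the 26 measured genes of the interferon gamma response described further on, 8 (30.8%) were lowest in the same pair of arrays, against 9.42% of all genes tested, a count made after the values were seen. Highest in that pair were 2 (7.69%), Apol6 and Ccl2, against 14.1% of all genes. One of the 8, the GTPase gene Irgm2, read 10.01 in Il10-/- replicate 2 and 9.68 in Il10+/+ replicate 4, against 10.42 to 10.97 elsewhere. By mean level over all genes, Irgm1, Irgm2, Igtp, Wars, Aim2 and Slfn2 were at the 81.1st to 98.4th percentile. Ly6c1 and Upp1 were at 49.0 and 54.2, and Apol6 and Ccl2 at 23.8 and 54.6. The shares over all genes were not matched for brightness, and the part of array quality in these values was not tested.

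**Figure D2:**
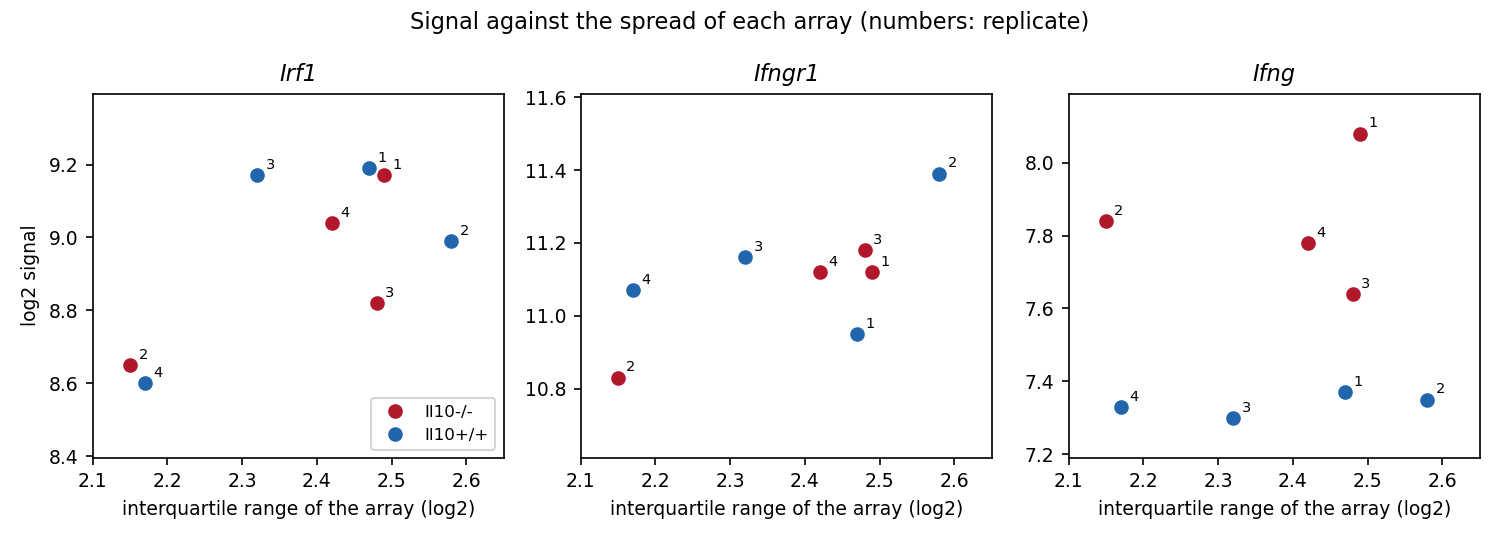
Log2 signal of Irf1, Ifngr1 and Ifng (vertical axes, 1 log2 unit each) against the interquartile range of each array over all genes (horizontal axis, log2), with Il10-/- arrays in red and Il10+/+ arrays in blue, numbered by replicate. Irf1 is lowest in the arrays with interquartile ranges of 2.15 and 2.17, and Ifng separates the genotypes on both sides of that gap.

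Il12b encodes the p40 subunit shared by interleukins 12 and 23, which dendritic cells and macrophages make and T cells as a rule do not. It read 6.58, 6.26, 6.54 and 6.71 in Il10-/- and 6.57, 6.40, 6.55 and 6.62 in Il10+/+ arrays. The groups overlapped, and the lowest and the highest array were both Il10-/-. The log2 difference was -0.01 (SE 0.12, 95% interval -0.27 to 0.24; limma, adjusted p = 0.999; exact permutation p = 0.886), and 0.10 without both arrays that stood apart. Its mean level was at the 35.9th percentile of brightness over all genes. No detection call was used, so these values do not show that Il12b was transcribed in the sorted cells.

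Across the 6 genes, 3 differences were positive and 3 negative, with a median of 0.01 against 0.002 over all genes tested. No member passed the adjusted threshold, and 1 of 6, Ifng, had an unadjusted p under 0.05 by limma, against 4.78% of all genes tested. Leaving Ifng aside, the differences lay between -0.08 and 0.09, and the middle 50% of all genes lay in the same interval. With 4 arrays a group, the 95% intervals of these 5 genes reached from -0.42 to 0.34.

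**Figure D3:**
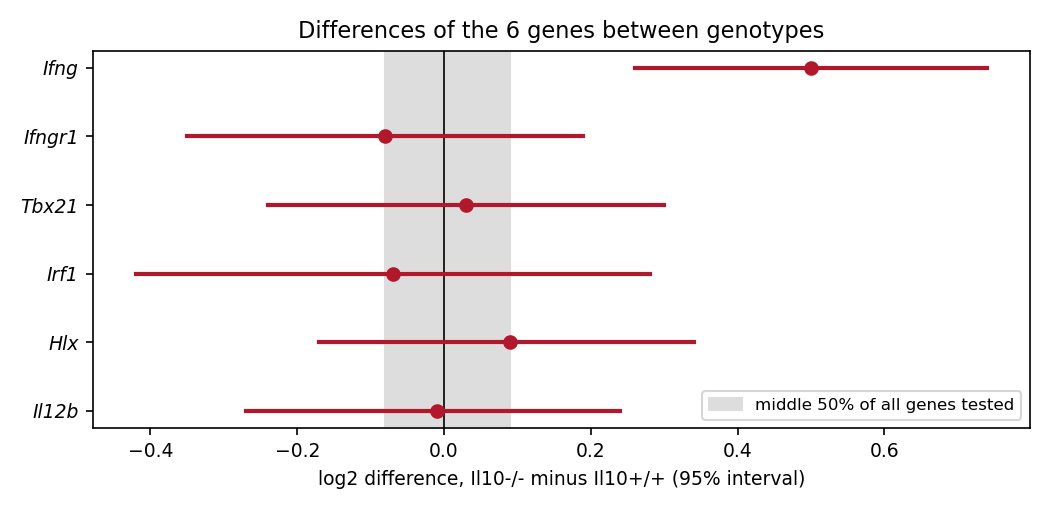
Log2 difference, Il10-/- minus Il10+/+ (horizontal axis), of the 6 genes, with the 95% interval from limma as a line. The grey band from -0.08 to 0.09 holds the middle 50% of all genes tested. The interval of Ifng lies above 0, from 0.26 to 0.74, and the other intervals include 0.

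**Figure D4:**
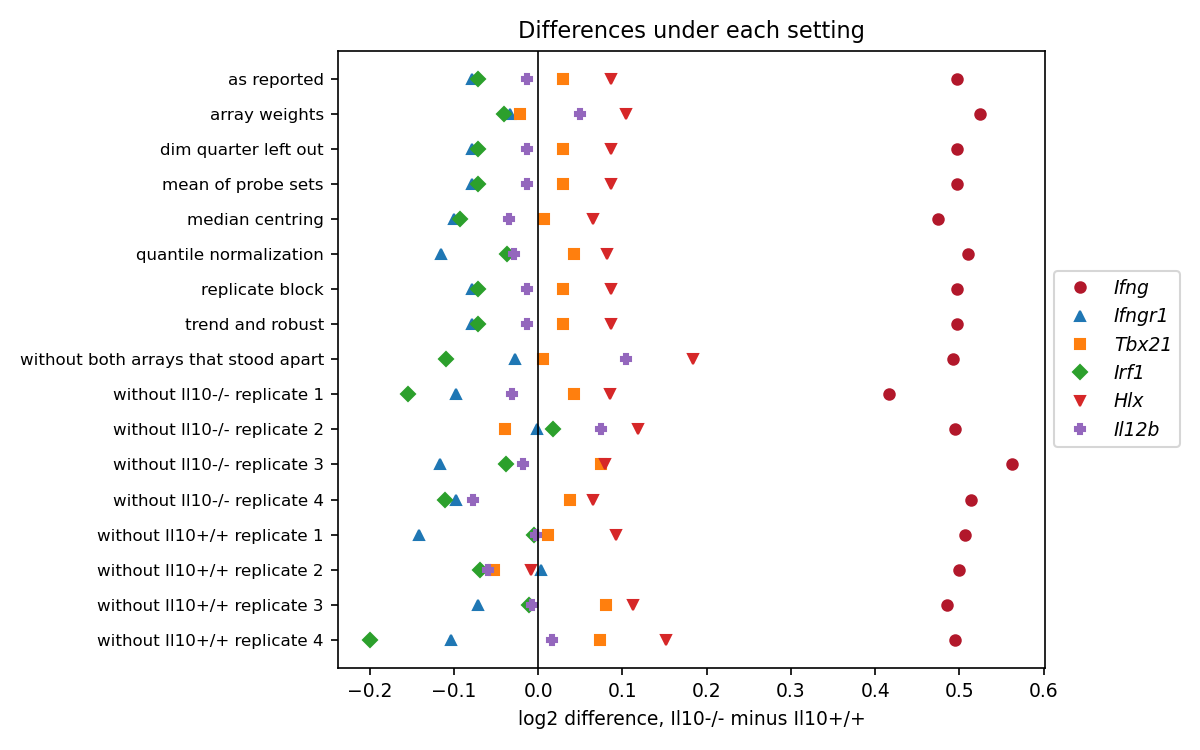
Log2 difference, Il10-/- minus Il10+/+ (horizontal axis), of each gene as reported (top row) and under 16 alternative settings of the processing or with arrays left out (other rows). Ifng stays between 0.42 and 0.56, and the other genes lie on both sides of 0.

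The measured genes downstream of the interferon gamma receptor were split evenly between higher and lower. Of 70 listed response genes 26 were measured, of which 13 had a positive and 13 a negative difference, with a median of -0.002. None passed the adjusted threshold, and Gch1, an enzyme that makes tetrahydrobiopterin, was the one member without overlap, against 2.92% of all genes. Gch1 read 7.81, 8.28, 8.33 and 7.94 in Il10-/- and 7.58, 7.81, 7.05 and 7.43 in Il10+/+ arrays, a log2 difference of 0.62 (SE 0.17; limma, adjusted p = 0.667). Il10-/- replicate 1 exceeded Il10+/+ replicate 2 by less than the rounding of these values. The next by p were Apol9b, an interferon-inducible apolipoprotein L gene, at -0.55 (SE 0.27) and the Schlafen gene Slfn1 at -0.15 (SE 0.10). The immunity-related GTPase genes Igtp and Irgm1 differed by 0.06 and 0.15, and Irgm2 by -0.07 (SE 0.28). Gbp2, Cxcl9, Cxcl10, Ciita and Tap1, also on the list, were not analysed here, so the even split covers only part of the response.

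Genes that carry the receptor's signal were mostly outside the measured set. Of 19 listed genes of receptor signalling and its inhibitors 7 were measured, with 2 positive and 5 negative differences and a median of -0.10. The median was -0.023 without Il10-/- replicate 2, -0.032 without Il10+/+ replicate 1 and -0.057 without Il10+/+ replicate 2. None passed the adjusted threshold, and the smallest p-values belonged to the kinase gene Prkcd at -0.14 (SE 0.14), the STAT inhibitor Pias4 at 0.13 (SE 0.13) and Stat2 at -0.28 (SE 0.28). Jak1, Jak2 and Ifngr2 were not analysed here.

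Genes upstream of Ifng had small differences in either direction. Of 23 listed genes of interleukin 12, 18 and 27 signalling 9 were measured, with 4 positive and 5 negative and a median of -0.038. Map2k6, a kinase of the p38 pathway through which interleukins 12 and 18 raise Ifng, had the smallest p of this list. It read 8.20, 8.36, 8.20 and 8.46 in Il10-/- and 8.05, 8.23, 7.90 and 7.67 in Il10+/+ arrays, so that the groups overlapped (log2 difference 0.34, SE 0.13; limma, adjusted p = 0.873). Stat4, the transducer of interleukin 12, differed by 0.04 (SE 0.11), the interleukin 18 receptor genes Il18r1 and Il18rap by 0.06 and 0.19, and the shared cytokine receptor chain Il6st by -0.16.

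Of 23 transcription factors that act with T-bet or on Ifng, 8 were measured, with a median of 0.062 and 0 past the adjusted threshold. The hypoxia factor Hif1a was at 0.22 (SE 0.10), Prdm1 (Blimp-1) at 0.20 (SE 0.17) and the immediate early gene Fos at -0.25 (SE 0.24). Of 15 listed antagonists of the Th1 programme 4 were measured, all within -0.10 to 0.02, among them the Ikaros family genes Ikzf1 (-0.10) and Ikzf3 (-0.08) and Twist1 (0.02), which limits Th1 cytokine output.

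Of 20 listed genes of Th1 effector function and surface phenotype 12 were measured, 6 positive and 6 negative, with a median of 0.034 and 0 past the adjusted threshold. Havcr2, the checkpoint receptor TIM-3, read 7.21, 7.00, 7.61 and 7.57 in Il10-/- and 6.49, 7.36, 6.10 and 5.98 in Il10+/+ arrays, a log2 difference of 0.86 (SE 0.27; limma, adjusted p = 0.742). Gzmb, the cytotoxic protease granzyme B, read 9.78, 8.75, 9.50 and 9.60 in Il10-/- and 7.34, 9.88, 7.16 and 8.04 in Il10+/+ arrays, a log2 difference of 1.30 (SE 0.50; limma, adjusted p = 0.873). Both overlapped through Il10+/+ replicate 2, which was high for these genes and at 7.35 for Ifng. The chemokine gene Ccl3 was at 0.37 (SE 0.21), and Gzmk, another granzyme gene, at -0.37 (SE 0.25).

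Cytokine genes of other helper lineages are given for comparison with Ifng. Of 11 listed 9 were measured, with 6 positive and 3 negative differences and 0 past the adjusted threshold. Besides Il10, the Th17 cytokine gene Il17a was at 0.57 (SE 0.21; limma, adjusted p = 0.873) with overlapping groups, its relative Il17f at 0.25 (SE 0.19) and the Th2 cytokine gene Il13 at -0.21 (SE 0.16). Over the 7 pathway lists together, 0 of 75 measured genes passed the adjusted threshold. In 2 (2.67%) the groups did not overlap, against 2.92% of all genes. These 2 were Gch1 and Il10, the gene targeted in these mice.

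**Figure D5:**
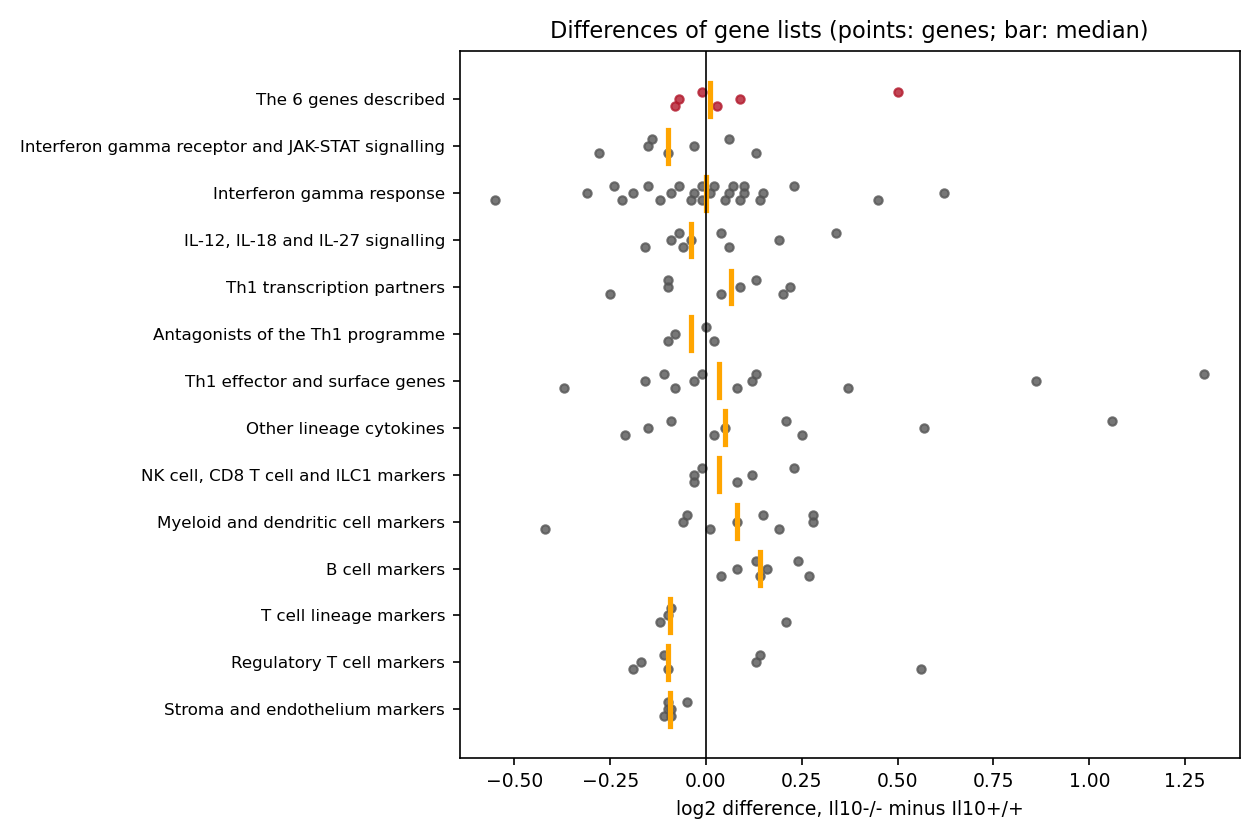
Log2 difference, Il10-/- minus Il10+/+ (horizontal axis), of the genes described (red) and of the measured members of 13 gene lists (grey points, 1 per gene), with the median of each row as an orange bar. The interferon gamma response genes spread evenly around 0, at a median of -0.002, and Ifng stands at 0.50 apart from the other 5 genes.

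Other cells that make interferon gamma or interleukin 12 could be carried over in the sort. Of 17 NK cell, CD8 T cell and ILC1 markers 6 were measured, and their summed linear signal ran from 1956 to 2994 in Il10-/- and from 2299 to 2878 in Il10+/+ arrays. They were 3 positive and 3 negative, with a median of 0.033. The integrin gene Itga2 differed by 0.23 (SE 0.13), the chemokine gene Xcl1 by -0.03 and the granzyme gene Gzma by 0.12, and Gzma was highest in Il10+/+ replicate 2 (9.65). Xcl1 was the brightest of the 6 and so weighed most in the sums. Xcl1, Gzma and Prf1 were also on the list of Th1 effector genes, so these sums are not specific to NK or CD8 T cells. The defining markers Ncr1, Klrb1c, Cd8a and Cd8b1 were not analysed here. Of 32 myeloid and dendritic cell markers 9 were measured, with summed signals of 1732 to 1979 in Il10-/- and 1665 to 2058 in Il10+/+ arrays. They were 6 positive and 3 negative, with a median of 0.081. The 2 brightest, Ncf4 and Fcer1g, differed by -0.05 (SE 0.17) and 0.19 (SE 0.23). The lysozyme gene Lyz1 differed by -0.42 (SE 0.21) and the other lysozyme gene, Lyz2, by 0.15 (SE 0.25). The dendritic cell transcription factor gene Batf3 was at 0.28 (SE 0.13) and the Fc receptor gene Fcgr2b at 0.28 (SE 0.17).

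B cell markers were all 7 positive, with a median of 0.142, Ighm at 0.16 and Cd79b at 0.27, and summed signals of 3978 to 6540 in Il10-/- and 4128 to 5883 in Il10+/+ arrays. Ighm was by far the brightest of the 7, so the B cell sums mainly follow that gene. The 4 measured genes of the T cell lineage list were 1 positive and 3 negative, with a median of -0.095. Themis was at 0.21 (SE 0.12), Ptprc at -0.09 and Il7r at -0.12. The 4 had summed signals of 10521 to 11482 in Il10-/- and 11283 to 12482 in Il10+/+ arrays. Ptprc encodes CD45, which all leukocytes carry, and was the brightest of the 4, so these sums are not specific to T cells. The 7 Treg markers, 3 positive and 4 negative, had a median of -0.096, which was 0.095 without Il10-/- replicate 2. They included Socs2, an inhibitor of cytokine signalling, at 0.56 (SE 0.27), and their sums were 10635 to 13398 in Il10-/- and 11910 to 13399 in Il10+/+ arrays. The 6 stroma and endothelium markers were all negative, with Pecam1 at -0.10, Col1a1 at -0.05 and sums of 1215 to 1407 in Il10-/- and 1245 to 1515 in Il10+/+ arrays. No marker in these lists passed the adjusted threshold, and the sums overlapped between groups in all 6 marker lists. Each sum is weighted towards its brightest genes, so this overlap says little about the dimmer markers. The part of other cells in the Ifng difference was not tested.

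The 3 nearest tested genes on either side of Ifng were Il22, Iltifb and Gm9049 before it and Dyrk2, 1700064J06Rik and Cand1 after it. Their differences ran from -0.04 to 0.30, and 0 of the 6 had groups that did not overlap, against 2.92% of all genes tested. Il22 and Iltifb, a near-identical pair of interleukin 22 genes whose signals cannot be separated with certainty, were at 0.21 (SE 0.22) and 0.30 (SE 0.17), with mean signals of 2.77 and 3.17 in Il10-/- and 2.56 and 2.87 in Il10+/+ arrays.

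The genes whose pattern over the 8 arrays was most like that of Ifng, by Pearson's r, were Eci2, a fatty acid oxidation enzyme (0.942), the microRNA gene Mir3473c (0.929), the endosomal protease gene Ctse (0.908), Chac2, an enzyme of glutathione breakdown (0.908), and the transporter gene Abcc3 (0.897). All 5 also had groups that did not overlap, against 2.92% of all genes tested. Choice by likeness to Ifng, whose groups do not overlap, favours such genes, so that count is no separate result. Eci2 averaged 8.54 in Il10-/- and 8.24 in Il10+/+ arrays, and Mir3473c 4.22 and 3.47. These r describe 8 points that share the split into genotypes. For the other genes the most similar patterns were those of Aph1a, Cxcr4 and Mmgt2 for Ifngr1 (r of 0.95 to 0.97), Nkx2-9, Col6a1 and Dnah1 for Tbx21 (0.969 to 0.973), Zfp280b, Actn1 and Pwp2 for Irf1 (0.956 to 0.96), Gdi2, Bag5 and Cts7 for Hlx (0.945 to 0.955), and Max, Mrnip and Cdc34 for Il12b (0.929 to 0.942). All 15 had overlapping groups.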

How the data were processed

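RNA of sorted CD4+CD25+ cells was amplified with the Ovation PicoSL system and hybridised to Affymetrix Mouse Gene 2.0 ST arrays, 4 pools per genotype. The deposited log2 values were made by the authors in Partek Genomics Suite, which applied RMA background correction, corrected for GC content and took the mean over each probe set's probes, per the labels. Affymetrix Expression Console is also named, per the submitters' processing notes. Program versions and the genome build are not given in the sources used. Background correction can compress differences of dim probe sets.

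Of 16378 probe sets, 7358 were annotated with 1 gene, 456 with several and 8564 with none. Symbols were updated by Entrez identifier to the RefSeq table of GRCm38.p6 (7310 matched). For the 284 genes with several probe sets the one of highest mean was kept, which left 6986 genes without a filter on signal. Chromosomes 1 and 10 to 15 held 99.6% of the 6943 genes with a position, so lists were measured only in part.

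Il10-/- minus Il10+/+ was fitted over all genes with limma 3.58.1 (lmFit, eBayes) in R 4.3.3 and adjusted by Benjamini-Hochberg. A two-sided exact permutation test over the 70 assignments was added for the 6 genes and is not adjusted. The number of arrays limits the precision. The fit was tested on simulated data with independent noise and changes larger than the Ifng difference. That test checks the code and not whether smaller differences can be found. Alternatives covered normalization, dim genes, probe sets, variance model, array weights, a replicate block and left-out arrays.

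The 6 genes, the lists and the rule for named genes were chosen with earlier results of these data known. The rule named the 6 genes and Il10. It took the 3 genes of smallest p in each pathway list, the 2 brightest of each marker list, the 3 nearest tested genes on either side, and the 5 (Ifng) or 3 genes of most similar pattern. Other genes named were chosen after their values were seen.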

Additional observations from a re-analysis of the deposited data

Results flagged for a closer look

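For the 94 genes named by the rule above, 188 groups of 4 arrays were examined. Genes named otherwise, Slfn2 and Socs2 among them, were not examined. In 17 of the 188 groups (9.04%), 1 array lay far from the rest by Dixon's test, which chance does in about 1 of 20 groups. Of these flags 8 were in Il10-/- replicate 2 and 4 in Il10+/+ replicate 4, the arrays that stood apart, and several genes were named for patterns like each other, so the flags are not independent. Among the genes described, Ifngr1 was flagged, at 10.83 in Il10-/- replicate 2 against 11.12 to 11.18 in the other Il10-/- arrays.

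In Il10-/- replicate 2 the further flags were Prkcd at 9.38 (others 9.67 to 9.72), Ighm at 11.47 (12.29 to 12.43), Slc22a5 at 7.44 (7.80 to 7.81), Slc22a21 at 5.41 (5.78 to 5.82), Ctse at 11.49 (11.72 to 11.75), Aph1a at 7.64 (8.53 to 8.69) and Gdi2 at 11.52 (11.63 to 11.64). In Il10+/+ replicate 4 they were Iltifb at 2.47 (2.98 to 3.02), Cand1 at 9.87 (10.26 to 10.34), Actn1 at 8.88 (9.80 to 9.93) and Pwp2 at 7.46 (7.68 to 7.69). In Il10-/- replicate 3 Hif1a was at 11.04 (others 11.12) and Dyrk2 at 9.16 (9.40 to 9.43). In Il10+/+ replicate 3 Slc22a5 was at 8.12 (7.81 to 7.84). In Il10+/+ replicate 2 Gdi2 was at 11.34 (11.58 to 11.62) and Cts7 at 4.39 (5.12 to 5.26).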

How the results depend on the processing

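Ifng was higher in Il10-/- under all 16 alternatives, by 0.42 to 0.56 (both ends from leaving out 1 array), and passed the adjusted threshold in none (limma, adjusted p = 0.305 to 0.9997, unadjusted p = 0.000543 to 0.00444). The other 5 genes passed under none either. Because the Ifng groups did not overlap, leaving out arrays could not change its direction. The replicate block, the trend and robust settings, the mean of probe sets and leaving out dim genes could not change its difference. Leaving out 1 array at a time gave -0.14 to 0.003 for Ifngr1, -0.052 to 0.081 for Tbx21, -0.2 to 0.018 for Irf1, -0.008 to 0.15 for Hlx and -0.077 to 0.075 for Il12b. The direction changed without Il10-/- replicate 2 for Tbx21 (-0.039), Irf1 (0.018) and Il12b (0.075). It changed without Il10+/+ replicate 2 for Ifngr1 (0.003), Tbx21 (-0.052) and Hlx (-0.008), and without Il10+/+ replicate 4 for Il12b (0.016). With array weights Tbx21 was at -0.022 and Il12b at 0.05, and without both arrays that stood apart Il12b was at 0.1; the cause was not tested. The count of genes called higher, 2 in all 8 arrays, was 1 (Ctse) with array weights, with median centring, with the replicate block and without both arrays that stood apart, and 3 (Ctse, Efcab2 and Hesx1) with trend and robust settings. With single arrays left out it was 1 to 4: 4 without Il10-/- replicate 3, 2 without Il10-/- replicate 4 and 1 (Ctse) without each of the other 6; 0 genes were called lower throughout. Deviations from the group means of same-numbered arrays had r of 0.053, -0.321, 0.027 and -0.186, and 0 of 8 arrays correlated best with its own number. No pairing by number was seen, but the arrays that stood apart carry different numbers and could hide one. With the replicate block, which leaves the difference as it is by design, Ifng was at 0.50 (limma, adjusted p = 0.721). Of 208 recomputed medians of the 13 lists, 206 moved by less than the spread between arrays. The exceptions were the Treg markers without Il10-/- replicate 2 (0.095 against -0.096) and the cytokines of other lineages with the dimmest genes left out (0.252 against 0.047). With single arrays left out, the medians also lay on both sides of 0 for the interferon gamma response (-0.018 to 0.061), interleukin 12, 18 and 27 signalling (-0.067 to 0.054) and the Th1 effector genes (-0.035 to 0.123). The table gives no background signal, so dim values such as those of Il12b have no detection limit here.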

Other observations

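Beside Irf1, which lies in the cluster of Th2 cytokine genes on chromosome 11, 2 of the 6 nearest tested genes had groups that did not overlap, against 2.92% of all genes tested, both lower in Il10-/-. Irf1 was picked out after the values were seen, and beside each of the other genes described 0 of 6 had such groups. Slc22a21, a carnitine transporter gene, read 5.78, 5.41, 5.82 and 5.78 in Il10-/- and 5.98, 6.00, 5.92 and 6.10 in Il10+/+ arrays, a log2 difference of -0.30 (SE 0.11; limma, adjusted p = 0.873). Slc22a5, its paralogue, differed by -0.18 (SE 0.12; limma, adjusted p = 0.999), and Il10-/- replicate 3 equalled Il10+/+ replicates 1 and 2 at 7.81 to the digits printed. As paralogues next to each other their probe sets may share signal, so they are not independent. On the other side of Irf1, Il5 and Il13 differed by -0.15 and -0.21 and Rad50 by 0.19, all with overlapping groups.

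Among the 3 nearest tested genes on either side of Ifngr1, Tnfaip3, an inhibitor of NF-kappaB signalling, differed by -0.32 (SE 0.16), and the other 5 neighbours by -0.04 to 0.14. Near Il12b, the ubiquitin ligase gene Rnf145 differed by -0.38 (SE 0.18). The groups of both overlapped, and neither passed the adjusted threshold (limma, adjusted p = 0.999 for each). The neighbours of Tbx21 lay between -0.15 and 0.05 and those of Hlx between -0.12 and 0.19, all with overlapping groups.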
